A study of Mus musculus and Rattus norvegicus with 26 samples.

Results

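The genes of intracellular calcium release and clearance were followed through 6 lists of cytoplasmic intron-sequence retaining transcripts (CIRTs), which are cytoplasmic RNAs that still hold part of an intron. The 8 genes were chosen by symbol and are Ryr1, Ryr2, Ryr3, Itpr1, Itpr2, Itpr3, Atp2a2 and Slc8a1. Of these 8 genes, 7 were listed at least once, with 211 introns, 286 contigs and 245826 reads summed over the lists, out of 13695 gene symbols, 85860 introns, 112345 contigs and 38103576 reads. A contig is a stretch of intron built from reads that lie close together.

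The lists came from dendrites cut from cultured hippocampal neurons, from single neuron somas, from single brown adipose tissue (BAT) cells and from single cardiomyocytes. Mouse neurons were from C57BL/6 animals and rat neurons from Sprague-Dawley animals, both at embryonic day 18, and the neurons were cultured before harvest. BAT cells were taken from interscapular fat of CD-1 mice at embryonic day 17.5 and picked by their shape. Cardiomyocytes were isolated by flow sorting from the ventricles of transgenic C57BL/6 mice at embryonic day 14.5, which carry a Fucci cell cycle reporter (a fluorescent fragment of human geminin) under the CMV promoter. The reporter is in those cells only. The labels name no treatment, and the RNA of every sample was amplified by 3 rounds of aRNA. The labels name 3 libraries of mouse dendrites, 3 of mouse somas, 2 of rat dendrites, 3 of rat somas, 6 of BAT cells and 9 of cardiomyocytes. Each list pools the libraries of its condition, so there is 1 value per gene and condition, no error between cells, and no test. Age, cell type and the way of culture and isolation change together between the non-neuronal lists and the neurons. The strain in BAT cells, and the transgene and the collecting laboratory in cardiomyocytes, change with them. None of these can be told apart. The number of cells and the amount of RNA per cell cannot be told apart either.

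Ryanodine receptors (Ryr1 to Ryr3) and inositol trisphosphate receptors (Itpr1 to Itpr3) are the channels through which calcium leaves the endoplasmic or sarcoplasmic reticulum. Ryr2 is the main form in heart, Ryr1 in skeletal muscle, and Itpr1 in many neurons. Calcium is cleared again by the reticulum pump encoded by Atp2a2 (SERCA2) and by the sodium-calcium exchanger of the plasma membrane encoded by Slc8a1 (NCX1). In heart muscle, Ryr2, SERCA2 and NCX1 together set the calcium transient of each beat.

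The stretches of sequence that the contigs of these genes turn on were read from the NCBIM37 (mm9) genome, on the strand of the gene and 5′ to 3′. Intron 81 of Ryr2 held the most reads of any intron of the 8 genes, 29463 in cardiomyocytes, and its contig (chr13:11713662-11715167, minus strand) ran from 1 nt after the start of the intron to its last base. Both ends are shown with 30 exon bases in capitals (chr13:11715109-11715198 and chr13:11713632-11713721).
Ryr2 start of intron 81: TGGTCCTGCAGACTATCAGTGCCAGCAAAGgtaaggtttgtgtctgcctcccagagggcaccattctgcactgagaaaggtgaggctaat
Ryr2 end of intron 81: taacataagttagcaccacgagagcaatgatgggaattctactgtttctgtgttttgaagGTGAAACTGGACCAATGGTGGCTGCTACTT

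Intron 76 of Ryr2 ended a contig at its own last base in both BAT cells and cardiomyocytes. The 110 intron bases of the BAT contig are printed with the first 30 bases of the next exon in capitals (chr13:11736138-11736277, minus strand).
Ryr2 end of intron 76: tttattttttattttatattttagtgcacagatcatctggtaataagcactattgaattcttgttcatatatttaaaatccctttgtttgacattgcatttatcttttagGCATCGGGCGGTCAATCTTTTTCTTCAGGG

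In intron 23 of Ryr2, contigs of mouse dendrites, mouse somas and cardiomyocytes shared 61 bases, shown in capitals (chr13:11878771-11878891, minus strand). No other stretch of Ryr2 lay in contigs of these 3 lists.
Ryr2 intron 23: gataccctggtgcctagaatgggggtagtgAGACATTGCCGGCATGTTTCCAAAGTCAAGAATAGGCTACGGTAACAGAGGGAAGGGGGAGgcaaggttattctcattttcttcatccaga

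In intron 40 of Itpr1, contigs of mouse somas and BAT cells ended at the same base, and a run of 11 adenines, shown in capitals, began at the base 7 nt beyond that end (chr6:108376519-108376704, plus strand).
Itpr1 intron 40: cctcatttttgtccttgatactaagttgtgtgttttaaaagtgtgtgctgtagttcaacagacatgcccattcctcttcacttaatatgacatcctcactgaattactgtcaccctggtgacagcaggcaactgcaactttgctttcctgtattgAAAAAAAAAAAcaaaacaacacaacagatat

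In Slc8a1, contigs of cardiomyocytes came up to both sides of a 69-base exon, shown in capitals (chr17:81837055-81837183, minus strand).
Slc8a1 exon between introns 6 and 7: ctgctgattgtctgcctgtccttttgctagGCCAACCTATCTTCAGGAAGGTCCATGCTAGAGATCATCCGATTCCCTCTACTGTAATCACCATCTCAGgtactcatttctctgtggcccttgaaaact

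The lists differed in depth, from 1007530 listed reads in rat dendrites to 17858440 in BAT cells, so reads are also given per 1000000 listed reads of the condition (RPM). The list labels were compared with intronic reads of marker genes. In cardiomyocytes 10 of 12 cardiomyocyte markers were listed (27974 RPM in sum), in BAT cells 9 of 10 brown adipocyte markers (8382 RPM) and in mouse somas 9 of 10 neuron markers (32013 RPM), while the cardiac factors Nkx2-5 and Gata4 were not listed in cardiomyocytes. Neuron markers were not confined to neurons, with 8 of 10 at 1667 RPM in BAT cells and 4 of 10 at 1152 RPM in cardiomyocytes. Mouse dendrites had 8 of 10 neuron markers at 2776 RPM and 4 of 6 astrocyte markers at 966 RPM, against 3 of 6 and 142 RPM in mouse somas. Of these astrocyte values Aldh1l1 alone made up 916 RPM in dendrites, while Slc1a2 was at 0 there and at 137 RPM in somas. In the rat lists 3 of 10 neuron markers were listed in dendrites (1421 RPM) and 6 of 10 in somas (7835 RPM). Most introns of the neuronal lists carried an even number of reads, for example 76.6% of the introns of mouse dendrites against 57.3% in cardiomyocytes. A count of 2 may therefore be 1 fragment, and the counting intervals below are narrower than the true error.

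Of the 8 genes 6 were listed in mouse dendrites, 5 in mouse somas, 6 in BAT cells and 5 in cardiomyocytes. Of the 12467 genes found in any mouse list, 69%, 47.3%, 82% and 49.8% were in these lists. Atp2a2 was in no list, so only 7 of the 8 genes belong to that base. Rat dendrites and rat somas listed 4 of the 8 genes each. Of 5712 genes found in a rat list, 78.5% were in rat dendrites and 59.4% in rat somas. Ryr1, Ryr3 and Atp2a2 were in neither rat list and are not part of that base. Of the members that are, only Itpr2 was missing from rat dendrites and only Itpr3 from rat somas.

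The 8 genes took 1.72% of all listed reads in cardiomyocytes (210049 reads, 65 introns, 93 contigs). In the other 5 lists their share was between 0.0256% in rat somas and 0.160% in BAT cells. In mouse dendrites they held 4387 reads in 45 introns, in mouse somas 1739 reads in 17 introns and in BAT cells 28635 reads in 60 introns. Rat dendrites held 480 reads in 15 introns and rat somas 536 reads in 9 introns.

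**Figure D1:**
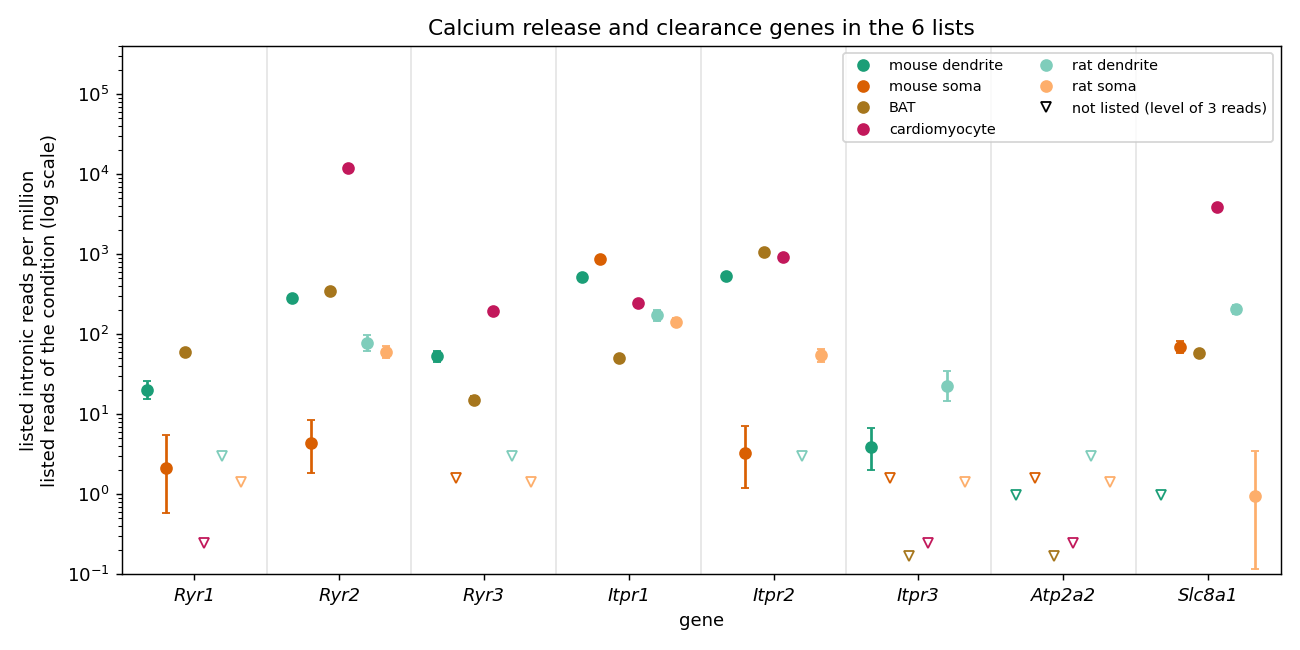
Listed intronic reads in RPM (log scale) of the 8 genes in the 6 lists. Points are pooled values with exact 95% Poisson intervals (counting error only) and open triangles mark genes not listed, drawn at the level of 3 reads. Ryr2 and Slc8a1 of cardiomyocytes stand at 11985 and 3864 RPM, above every other point.

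Ryr2, the cardiac ryanodine receptor (NM_023868, chromosome 13, minus strand), had 146224 reads in cardiomyocytes, 6153 in BAT cells, 863 in mouse dendrites and 8 in mouse somas. It was listed with 78 reads in rat dendrites and 125 in rat somas. Cardiomyocytes were far above the other lists and mouse somas lay at the bottom. In RPM the order was 11985 in cardiomyocytes, 345 in BAT cells (interval 336 to 353), 280 in mouse dendrites (261 to 299), 77.4 in rat dendrites (61.2 to 96.6), 59.7 in rat somas (49.7 to 71.1) and 4.31 in mouse somas (1.86 to 8.50). Among these neighbours only the intervals of rat dendrites and rat somas overlapped. With contigs of at most 400 nt the order changed, to 5175 RPM of Ryr2 in cardiomyocytes, 487 in mouse dendrites, 201 in rat somas, 184 in rat dendrites, 152 in BAT cells and 9.01 in mouse somas. Ryr2 ranked 3 of 6205 genes by reads in cardiomyocytes, 704 of 10220 in BAT cells, 884 of 8607 in mouse dendrites and 4303 of 5895 in mouse somas.

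The reads of Ryr2 in cardiomyocytes were spread over many introns. The annotated transcript has 104 introns with 537 kb of intron sequence, and 47 of them were listed, or 45.2% (36.0 to 54.8). This was the largest number of listed introns among the 6334 cardiomyocyte transcripts matched to the annotation, whose median was 1. The introns with the most reads were intron 81 with 29463, intron 53 with 23436 and intron 23 with 18493, which ranked 24, 40 and 68 of 13056 introns of the list. Together they held 48.8% of the Ryr2 reads, and 42 of the 47 introns had at least 32 reads. Per kb of intron Ryr2 had 272 reads, rank 276 of 6334, against a median of 5.36 over all transcripts.

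The leading introns of Ryr2 differed between the lists. In BAT cells 18 of 104 introns were listed, led by intron 5 with 1706 reads, intron 7 with 1338 and intron 29 with 828. In mouse dendrites 13 were listed, led by intron 3 with 412 reads, intron 96 with 168 and intron 10 with 126. Mouse somas had introns 23 and 46 with 2 reads each and intron 77 with 4. Over the 4 mouse lists 55 introns were listed, of which 36 were found in 1 list, 12 in 2 lists, 7 in 3 lists and 0 in all 4. Of the 13 introns of mouse dendrites 10 were also listed in cardiomyocytes (76.9%), which is 21.3% of the cardiomyocyte introns, and so were 12 of the 18 of BAT cells (66.7%) and 3 of the 3 of mouse somas. Over all genes, cardiomyocytes listed 24.0% of the introns of mouse dendrites, 26.1% of those of BAT cells and 32.9% of those of mouse somas. These shares include genes that cardiomyocytes did not list at all, whereas 45.2% of all Ryr2 introns were listed there, so the bases are unlike. The listed Ryr2 introns of mouse dendrites were also long, with a median of 6167 nt against 1824 nt for those not listed. The part of either in the overlap was not tested. Intron 5 shows how uneven shared introns were, with 1706 reads in BAT cells, 30 in mouse dendrites and 3 in cardiomyocytes. The first 52 introns held 4385 of the BAT reads and 667 of the dendrite reads, with 1768 and 196 in the last 52, whereas cardiomyocytes had 55974 in the first and 90250 in the last 52.

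**Figure D2:**
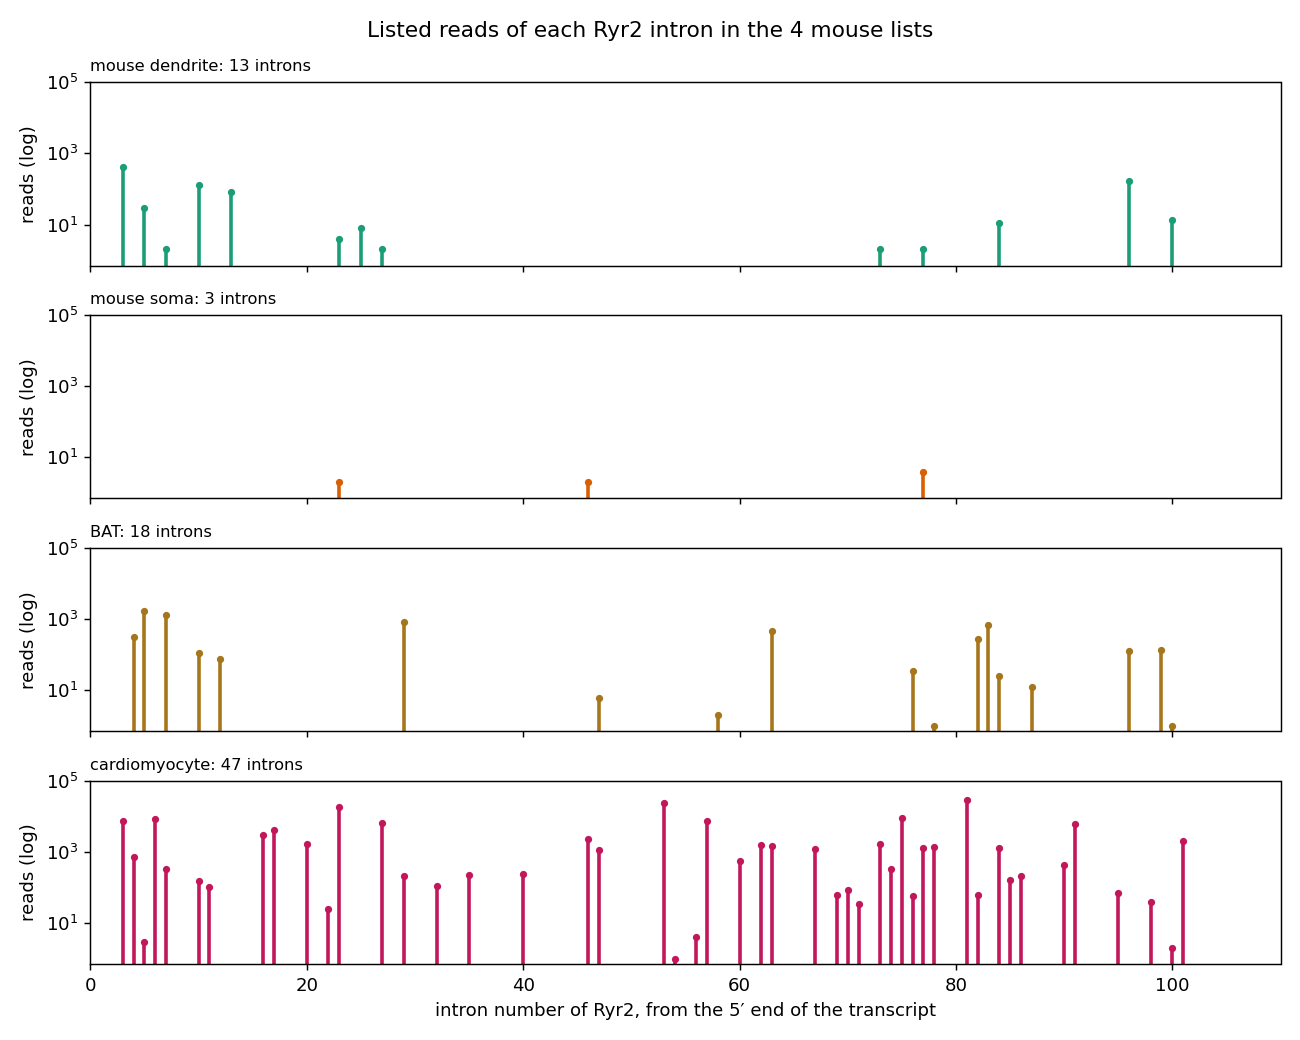
Reads of each listed Ryr2 intron (log scale) against the intron number from the 5′ end, for the 4 mouse lists. Each line with its point is 1 intron. Cardiomyocytes have 47 listed introns along the whole transcript, BAT cells 18, mouse dendrites 13 and mouse somas 3.

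Most of these introns were covered in part. In cardiomyocytes the median share of a listed Ryr2 intron that lay inside contigs was 19.3%, against 12.6% over all introns of the list. Introns 91 and 81 were covered over 1719 of 1720 nt and 1506 of 1507 nt, and intron 69 over 92.7% of its length with only 64 reads. Coverage of 90% or more was thus found for 6.38% of the Ryr2 introns (2.19 to 17.2) and for 11.3% of all introns of the cardiomyocyte list. Of the 67 Ryr2 contigs 28.4% (19.0 to 40.1) reached within 5 nt of an intron end, against 32.6% of all cardiomyocyte contigs. Fully covered introns, such as intron 81 printed above, cannot be told apart from unspliced RNA in these data, since whole cells include the nucleus.

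**Figure D3:**
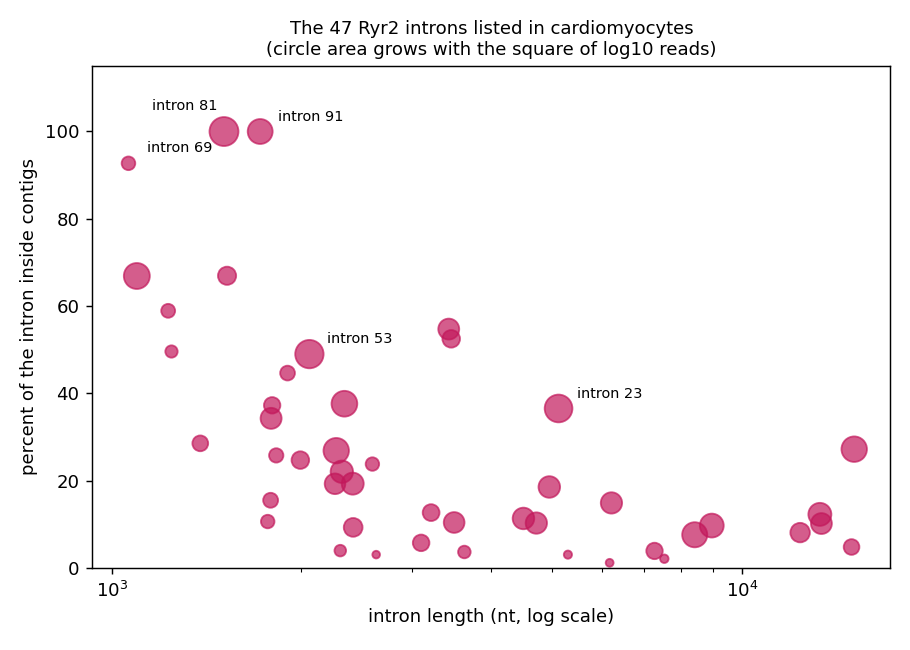
Percent of each listed Ryr2 intron inside contigs against intron length (nt, log scale), in cardiomyocytes. Each circle is 1 of the 47 introns and its area grows with its reads. Introns 91, 81 and 69 are covered over more than 90% of their length, and introns 53 and 23, with 23436 and 18493 reads, over 49.0% and 36.6%.

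Contigs of Ryr2 were longer in cardiomyocytes and BAT cells than in neurons. Their median length was 471 nt in cardiomyocytes and 475 nt in BAT cells, against 240 nt in mouse dendrites and 218 nt in mouse somas. The value of mouse somas rests on 3 contigs. Contigs are built from reads, and the median number of reads per listed Ryr2 intron differed in the same direction. It was 552 in cardiomyocytes, 119.5 in BAT cells, 11 in mouse dendrites and 2 in mouse somas. The part of read depth in the contig lengths was not tested. Of the Ryr2 contigs 58.2% (46.3 to 69.3) exceeded 400 nt in cardiomyocytes and 57.9% (36.3 to 76.9) in BAT cells, but 5.88% (1.05 to 27.0) in mouse dendrites. Over all genes the shares were 36.2% in cardiomyocytes, 33.9% in BAT cells and 27.5% in mouse dendrites. For all 8 genes together 59.1% (49.0 to 68.6) of the cardiomyocyte contigs exceeded 400 nt, whereas 33.7% did so in BAT cells and 28.1% in mouse dendrites, near the shares over all genes. Limiting whole cells to contigs of at most 400 nt, as the study did, left 31 of the 65 introns in cardiomyocytes.

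**Figure D4:**
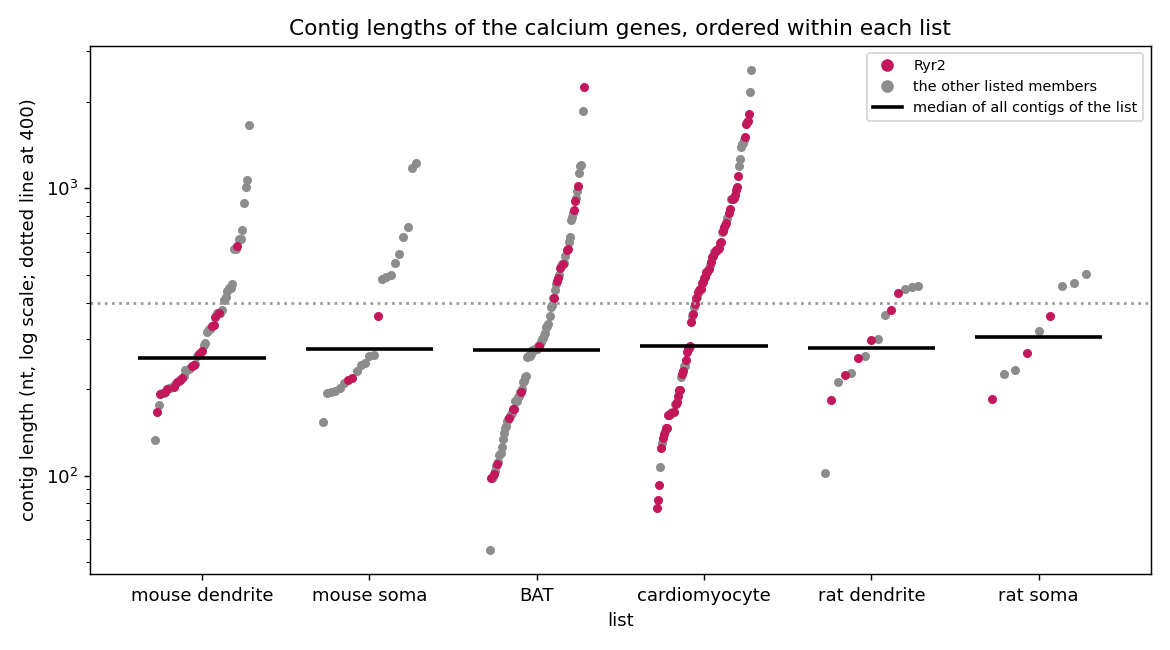
Length (nt, log scale) of every contig of the 8 genes, ordered from short to long within each list, with Ryr2 in colour and the median of all contigs of the list as a bar. In cardiomyocytes most points lie above the dotted line at 400 nt and above the list median of 282 nt.

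Ryr1, the skeletal muscle receptor (NM_009109, chromosome 7, minus strand, 105 introns), had 1058 reads in 13 introns of BAT cells, 62 reads in 4 introns of mouse dendrites and 4 reads in 1 intron of mouse somas. It was not listed in cardiomyocytes or in either rat list. The BAT reads were led by intron 31 with 289, intron 63 with 278 and intron 7 with 118. In dendrites intron 76 had 38 reads, intron 37 had 20 and introns 1 and 84 had 2 each. Of the 6 skeletal muscle markers only Myh3 was listed in BAT cells (1197 reads), with Myod1, Acta1, Myh1, Myh4 and Tnnt3 at 0, and their part in the Ryr1 reads was not tested. The Ryr1 contigs in intron 37 overlap exons of the antisense gene Gm16799, and the libraries do not keep the strand, so these reads cannot be assigned to either gene.

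Ryr3 (NM_177652, chromosome 2, minus strand, 103 introns), the third receptor of the family, was listed with 2365 reads in cardiomyocytes, 271 in BAT cells and 163 in mouse dendrites, and not in mouse somas or rat. In RPM these are 194 (186 to 202), 15.2 (13.4 to 17.1) and 52.8 (45.0 to 61.6), so dendrites stood above BAT cells on this scale. The cardiomyocyte reads came from 3 introns, intron 27 with 1098, intron 52 with 750 and intron 49 with 517. In BAT cells intron 92 held 207 of the reads, intron 47 held 38 and intron 42 held 12, and in mouse dendrites introns 47, 63 and 27 held 72, 48 and 31. Ryr3 thus had 3 to 6 listed introns where it was listed at all, in 384 kb of intron.

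Itpr1 (NM_010585, chromosome 6, plus strand, 61 introns), the inositol trisphosphate receptor typical of neurons, was the only one of the 8 genes with at least 32 reads in all 6 lists. It had 1618 reads in mouse dendrites, 1591 in mouse somas, 898 in BAT cells, 3008 in cardiomyocytes, 174 in rat dendrites and 295 in rat somas. In RPM mouse somas led with 857 (816 to 901), followed by mouse dendrites with 524 (499 to 550), cardiomyocytes with 247 (238 to 256), rat dendrites with 173 (148 to 200), rat somas with 141 (125 to 158) and BAT cells with 50.3 (47.0 to 53.7). Only the intervals of rat dendrites and rat somas overlapped between neighbours. Under the limit of 400 nt Itpr1 had 854 RPM in mouse somas, 752 in mouse dendrites, 493 in cardiomyocytes, 105 in BAT cells, 66.6 in rat dendrites and 9.67 in rat somas, so that BAT cells were no longer last.

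Intron 4, the longest of Itpr1 with 98172 nt, was listed in all 4 mouse lists, with 782 reads in dendrites, 603 in somas, 243 in BAT cells and 2286 in cardiomyocytes. Intron 40 had 718 reads in mouse somas, 282 in mouse dendrites and 60 in BAT cells, and intron 42 had 404 in mouse dendrites, 28 in mouse somas and 16 in cardiomyocytes. Intron 39 was listed with 54 reads in mouse somas, 94 in BAT cells and 102 in cardiomyocytes. BAT cells were led by intron 51 with 247 reads, and cardiomyocytes had 358 reads in intron 7 and 246 in intron 13 after intron 4. In rat, dendrites had 148 reads in intron 13 and 22 in intron 42, and somas had 150 in intron 39 and 139 in intron 42. Rat introns carry the numbers of the rat transcript, and whether a number marks the same intron in both species was not analysed here.

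Itpr2 (NM_019923, chromosome 6, minus strand, 56 introns), a receptor of many non-neuronal cells and the main form in heart muscle cells, had 19213 reads in BAT cells, 11312 in cardiomyocytes, 1669 in mouse dendrites, 114 in rat somas and 6 in mouse somas. It was not listed in rat dendrites. BAT cells with 1076 RPM (1061 to 1091) and cardiomyocytes with 927 (910 to 944) led, and mouse dendrites had 541 (515 to 567), while mouse somas were at 3.23 (1.19 to 7.04). Under the limit of 400 nt Itpr2 had 2495 RPM in BAT cells and 1212 in cardiomyocytes. There intron 26 of BAT cells stayed with all its reads, although 1 of its contigs was 1134 nt long. Without the leading intron it had 235 and 493, and the order of these lists turned. Single introns decided these totals. Intron 26 gave 15022 of the BAT reads (78.2%), intron 34 gave 1278 of the dendrite reads (76.6%), and intron 37 gave 5297 of the cardiomyocyte reads (46.8%), followed by intron 1 with 3544 and intron 55 with 2111. The next introns were 45 and 37 in BAT cells with 2001 and 1432 reads, and 50 and 4 in mouse dendrites with 143 and 126. Intron 34 was in all 4 mouse lists, with 2 reads in mouse somas and 2 in cardiomyocytes. The 114 reads of rat somas came from 1 contig of 504 nt in intron 29.

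Itpr3 (chromosome 17, plus strand, 57 introns in 55.9 kb), the shortest of the receptor genes, was listed only in dendrites, with 12 reads in 1 intron in mouse and 23 reads in 2 introns in rat. Atp2a2, the reticulum calcium pump of heart and brain, was in no list. A gene that is not listed is not shown to lack intronic reads, because introns with predicted genes, known poly(A) sites or reads only at exon junctions were removed before the lists were made. The floor of 3 reads, used below for a gene at 0, corresponds to between 0.168 RPM in BAT cells and 2.98 RPM in rat dendrites.

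Slc8a1, the sodium-calcium exchanger (NM_011406, chromosome 17, minus strand), had 47140 reads in cardiomyocytes, 1042 in BAT cells, 205 in rat dendrites, 130 in mouse somas and 2 in rat somas. Mouse dendrites did not list it. In RPM cardiomyocytes had 3864 (3829 to 3899), rat dendrites 203 (177 to 233), mouse somas 70.1 (58.5 to 83.2), BAT cells 58.3 (54.9 to 62.0) and rat somas 0.955 (0.116 to 3.45). Mouse somas and BAT cells overlapped in their intervals, and in cardiomyocytes Slc8a1 ranked 20 of 6205 genes. Under the limit of 400 nt cardiomyocytes no longer listed it, and mouse somas had 146 RPM, BAT cells 119, rat dendrites 113 and rat somas 3.22. Without the leading intron cardiomyocytes had 2254 RPM, rat dendrites 43.7, BAT cells 6.94 and mouse somas 1.08.

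The Slc8a1 reads of cardiomyocytes came from 5 consecutive introns, numbered 6 to 10 in the lists, with 19633 reads in intron 7, 15369 in intron 10, 9135 in intron 6, 1516 in intron 8 and 1487 in intron 9. Introns 6 and 7 were covered over 71.6% and 52.0% of their lengths. A contig of intron 6 (chr17:81837164-81838643) stopped 10 nt before the exon printed above, and the contig of intron 7 (chr17:81834498-81837082) began 2 nt into intron 7. All 6 contigs were longer than 400 nt, from 541 to 2585 nt, so the limit of 400 nt removed the gene from the cardiomyocyte list. In mouse somas intron 7 had 128 reads and intron 8 had 2, in contigs of 154 to 551 nt that all lay within cardiomyocyte contigs. BAT cells had 918 reads in intron 10 and 124 in intron 9, and 1 of these 4 contigs overlapped a cardiomyocyte contig. A contig of intron 6 overlaps an exon of the antisense gene Gm11096 over 231 nt.

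Rat dendrites had 161 Slc8a1 reads in intron 9, 30 in intron 8 and 14 in intron 6, and rat somas had 2 in intron 6. The contigs of intron 6 were nearly the same in both rat lists, at chr6:4467695-4467922 in dendrites and chr6:4467695-4467920 in somas on the rat build rn4.

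**Figure D5:**
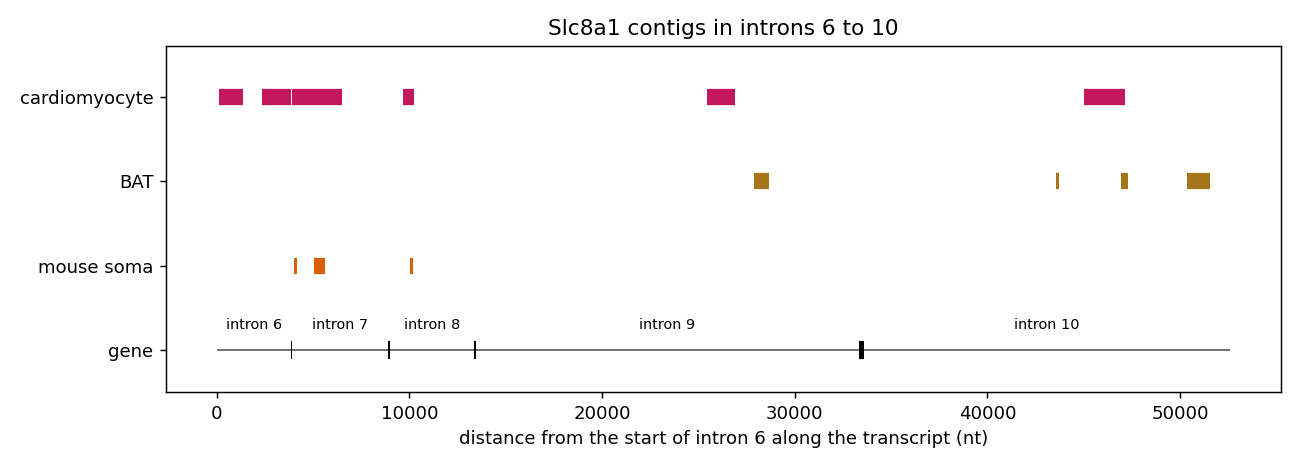
Contigs of Slc8a1 in introns 6 to 10 in 3 mouse lists, against the distance (nt) from the start of intron 6 along the transcript. Bars are contigs, the thin line the introns and the black marks the exons between them. Cardiomyocytes have contigs in all 5 introns, mouse somas in introns 7 and 8, and BAT cells in introns 9 and 10.

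Dendrites were compared with somas within each species. A dendrite library was made from many dissected dendrites and a soma library from a single cell. Location and the number of cells sampled thus change together and cannot be told apart. A gene was called where its RPM differed by at least 4-fold and it had at least 32 reads in 1 of the conditions. Between mouse dendrites and mouse somas 4 of the 6 members with enough reads were higher in dendrites and 1 was higher in somas. Over all 6675 genes 53.2% were at least 4-fold higher in dendrites and 22.8% in somas, so most genes of the lists are called. Itpr2 was 167-fold higher in dendrites (interval 76.7 to 456) and Ryr2 was 64.8-fold higher (32.8 to 151). Ryr1 was 9.32-fold higher (3.46 to 35.3) and Ryr3 at least 32.7-fold higher. Slc8a1 was at least 72.1-fold higher in mouse somas, and Itpr1 was 1.64-fold higher there (1.53 to 1.75). Leaving out the leading intron of each gene left 3 members called, since Ryr1 with 7.78 RPM in dendrites and Slc8a1 with 1.08 RPM in somas then fell under the minimum of 32 reads. Under the limit of 400 nt Ryr1 had 2.28 RPM in mouse dendrites and 4.51 RPM in mouse somas, so its direction turned and it was not called. Brown adipocyte markers had 429 RPM in mouse dendrites (7 of 10 listed) and 2.16 in mouse somas (2 of 10), and astrocyte markers 966 and 142 RPM. Fibroblast markers had 70.3 and 56.1 RPM and skeletal muscle markers 4.54 and 0. Other sets were higher in mouse somas, with endothelial markers at 639 and 733 RPM and cardiomyocyte markers at 869 and 1073. The part of these markers in the folds was not tested.

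In rat, 4 members had enough reads, of which 1 was higher in dendrites and 1 in somas, against 48.1% and 34.2% of 3319 genes. Slc8a1 was 213-fold higher in dendrites (58.2 to 1771) and Itpr2 was at least 18.3-fold higher in somas. Ryr2 differed by 1.30-fold (0.965 to 1.73) and Itpr1 by 1.23-fold (1.01 to 1.48), but both values moved with the processing. Without the leading intron Itpr1 had 25.8 RPM in rat dendrites and 69.2 in rat somas, and Ryr2 had 30.8 and 3.82. Under the limit of 400 nt Itpr1 had 66.6 and 9.67 RPM, and Ryr2 184 and 201. Fibroblast markers had 319 RPM in rat dendrites (3 of 6 listed) and 0.955 in rat somas (1 of 6), endothelial markers 250 (2 of 5) and 2.86 (1 of 5), and brown adipocyte markers 94.3 (1 of 10) and 15.8 (2 of 10). Other sets were higher in rat somas, with astrocyte markers at 68.5 RPM in dendrites and 120 in somas. Cardiomyocyte markers had 0 and 152 RPM and skeletal muscle markers 0 and 8.59. The part of these markers in the rat folds was not tested. Itpr2 and Slc8a1 thus went opposite ways in mouse and rat. For Itpr2 this rested on the 1 contig of 504 nt in rat somas, which the limit of 400 nt or leaving out the leading intron removes. For Slc8a1 it held under the limit of 400 nt, but mouse somas kept 2 reads without intron 7.

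Cardiomyocytes were compared with mouse somas and with BAT cells, which like them are single cells that include the nucleus, though culture and isolation differed. Against mouse somas 4 of 5 members were at least 4-fold higher in cardiomyocytes and 0 in somas, while 37.7% and 36.6% of 5638 genes were called in each direction. Ryr2 was 2780-fold higher (1411 to 6438), Itpr2 287-fold (132 to 781), Slc8a1 55.1-fold (46.4 to 66.0) and Ryr3 at least 120-fold, and Itpr1 was 3.48-fold higher in somas (3.27 to 3.70). Under the limit of 400 nt the direction of Slc8a1 turned (log2 fold -7.83), and without the leading intron Itpr1 was called higher in somas (-2.99). The mouse somas gave only 8 reads of Ryr2 and 6 of Itpr2, which sets the width of these intervals.

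Against BAT cells 4 of 6 members were higher in cardiomyocytes and 1 was higher in BAT cells, against 23% and 56.2% of 8070 genes. Slc8a1 was 66.2-fold higher in cardiomyocytes (62.3 to 70.5), Ryr2 34.8-fold (33.9 to 35.7), Ryr3 12.8-fold (11.3 to 14.5) and Itpr1 4.90-fold (4.55 to 5.29). The call of Ryr3 was lost under the limit of 400 nt (log2 fold 1.72), and that of Itpr1 without its leading intron (0.70). Ryr1 was at least 241-fold higher in BAT cells, and Itpr2 differed by 1.16-fold, with a direction that turned without its leading intron. Under the limit of 400 nt Slc8a1 was no longer listed in cardiomyocytes and its direction turned, while Ryr2 kept a log2 fold of 5.09 over BAT cells and of 9.17 over mouse somas. Of the 12 cardiomyocyte markers 7 were listed in BAT cells at 3503 RPM, with Myh7, Tnnt2, Tnni3, Mybpc3 and Gata4 at 0, and their part in the Ryr2 reads of BAT cells was not tested.

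BAT cells and mouse somas each enter a comparison above as well. Between them 4 of 6 members were higher in BAT cells and 1 in somas, against 43.9% and 21.8% of 7942 genes. Itpr2 was 333-fold higher in BAT cells (153 to 907), Ryr2 79.9-fold (40.5 to 185), Ryr1 27.5-fold (10.7 to 101) and Ryr3 at least 9.39-fold, whereas Itpr1 was 17.1-fold higher in somas (15.7 to 18.5). Slc8a1 differed by 1.20-fold with an interval of 0.993 to 1.44. Without the leading intron Slc8a1 was called higher in BAT cells (log2 fold 2.69, on 2 reads in somas), and Ryr3 was no longer called (1.15).

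Introns listed in several cell types were counted for these genes and for all genes. Over the 4 mouse lists the members had 120 different introns, of which 60% were in 1 list, 25.8% in 2, 12.5% in 3 and 1.67% in all 4. Over all 46599 introns these shares were 60.5%, 25.7%, 10.1% and 3.70%. Within shared introns, 44 pairs of member contigs from different lists overlapped. Their 3′ ends were a median of 145 nt apart and 3 of 44 pairs (6.82%) ended within 10 nt of each other, while over 21111 pairs of all genes the median was 54 nt and 31.3% ended within 10 nt. Pairs of the same gene are not independent, and some rest on very few reads. Intron 32 of Itpr2, for example, had 2 reads in mouse somas and 2 in BAT cells, and intron 78 of Ryr2 had 1 in BAT cells. Of the members' contigs 10.1% (5.41 to 18.1) reached within 5 nt of an intron end in BAT cells and 22.6% (15.3 to 32.1) in cardiomyocytes, against 28.4% and 32.6% over all genes. In mouse dendrites it was 1.75% (0.310 to 9.29) against 8.77%, and in mouse somas 0 of 23 contigs (0 to 14.3) against 14.3%, so that the share of all genes lay within or at the edge of the interval. These differences were not tested.

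Runs of at least 10 adenines, at which the poly(T) primer of the amplification could start, were searched on the strand of the gene within 300 nt beyond the 3′ end of the 262 mouse contigs. They were found for 23 contigs, or 8.78% (5.92 to 12.8), against 9.40% over all mouse contigs. By gene the share was 17.5% (9.82 to 29.4) for Itpr1, where intron 40 is printed above, 10.4% (5.89 to 17.6) for Ryr2, 3.85% (1.06 to 13.0) for Itpr2 and 0% (0 to 22.8) for Slc8a1. Inside the contigs such runs were found for 28 of the 262, or 10.7% (7.50 to 15.0), against 10.3% over all mouse contigs, and here Slc8a1 had 5 of 13 (38.5%, 17.7 to 64.5). Of the 262 contigs 7 touched an annotated exon on either strand.

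Other genes of reticulum and membrane calcium handling were counted for comparison in a list of 41 genes. Of these 28 were listed in mouse dendrites, 20 in mouse somas, 27 in BAT cells, 17 in cardiomyocytes and 12 in each rat list, and 7 were in no list, among them the SERCA inhibitors Pln and Sln. Trdn, which encodes triadin, an anchor between ryanodine receptors and calsequestrin, led in cardiomyocytes with 158733 reads (13010 RPM), 144061 of them in intron 8, and in BAT cells with 15647 reads (876 RPM). After it came the sodium-calcium-potassium exchanger Slc24a2 with 16015 reads and the reticulum cation channel Tmem38a with 4714 in cardiomyocytes, and Letm1 with 3417 and Slc24a3 with 2673 in BAT cells. Mouse dendrites were led by the reticulum calcium sensor Stim1 with 2506 reads, Asph with 2446 and Slc24a2 with 1946, and mouse somas by the plasma membrane pump Atp2b3 with 1032, Slc24a2 with 899 and Trdn with 508. Stim1 also led rat dendrites with 1038 reads, followed by Atp2b1 with 187 and Stim2 with 112, and rat somas were led by Slc24a2 with 7693, Slc8a2 with 4080 and Atp2b1 with 1717. Of those with enough reads, 7 of 19 were higher in mouse dendrites and 3 in mouse somas (53.2% and 22.8% of all genes), and in rat 3 of 9 were higher in dendrites and 6 in somas (48.1% and 34.2%). Against mouse somas 6 of 19 were higher in cardiomyocytes and 6 in somas (37.7% and 36.6%), and 11 of 25 were higher in BAT cells and 5 in somas (43.9% and 21.8%). Between cardiomyocytes and BAT cells 8 of 25 were higher in cardiomyocytes and 13 in BAT cells (23% and 56.2%).

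The genes whose levels over the 6 lists lay nearest to those of Ryr2, among 4152 genes with at least 1000 reads in some list, were Adamts9, Trim44, Ptprk, Lrrk2 and Tpp2. The measure was the sum over the lists of the absolute differences in log2(RPM + 1), and it was 7.16 for Adamts9 and between 8.11 and 9.56 for the others. Adamts9 had 1306 RPM in cardiomyocytes, 351 in BAT cells, 211 in mouse dendrites and 7.55 in mouse somas. In cardiomyocytes Trim44 had 570 RPM, Lrrk2 1373, Ptprk 4570 and Tpp2 5393, so all these genes were below the 11985 RPM of Ryr2 there.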

How the data were processed

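RNA-seq libraries were made from dendrites and single cells after 3 rounds of aRNA amplification. The authors aligned the reads with RUM to mm9 and rn4, used only intronic reads that map to 1 place, dropped those introns with GENSCAN or TWINSCAN predictions, PolyA_DB2 sites or junction reads only, and joined nearby reads into contigs, which lie at least 501 nt apart in the lists. The deposited counts are raw reads per intron, without normalization, pooled over the libraries of a condition. The study's text names fewer BAT cells and cardiomyocytes than are among the 26 labelled samples, and which entered the lists is not given in the sources used here.

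Each count is repeated on every contig of an intron and was taken once per transcript and intron. Start positions were shifted to count from 1. Mouse transcripts were matched to GENCODE vM1 on NCBIM37 by intron number (98.8% of 13156 transcripts), and rat intron lengths were not analysed here. RPM values refer to all reads of the list, which range from 1007530 to 17858440, and the depth of single libraries is not held by the lists. Reads carry exact Poisson intervals, shares 95% Wilson intervals, and folds exact intervals from the binomial share of the reads. All intervals cover counting error only, since amplified reads are not independent molecules. A fold against a gene at 0 used a floor of 3 reads. Called genes differ by 4-fold or more with at least 32 reads in 1 condition. No test between conditions was possible with 1 pooled list each.

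The 8 genes, the list of 41 genes and the markers were chosen with earlier results of these data known. Named are all 8 genes with up to 3 leading introns per list, the 3 leading genes of the list of 41, and the 5 genes nearest to Ryr2. Further introns are named where all listed introns of a gene, shared introns, coverage or a printed sequence are described. Intron sequences come from the NCBIM37 genome. Alternatives were a limit of 400 nt on contigs, a minimum of 32 reads per intron, totals without the top 100 introns, contigs at the same position counted once, a floor of 1 read and leaving out the leading intron of each gene. The limit of 400 nt kept an intron with all its reads if its shortest contig was at most 400 nt long. RPM then used the reads of the introns kept as the total, so a level can rise under this limit. Python 3.11.15, pandas 2.3.3, numpy 2.4.6, scipy 1.17.1 and matplotlib 3.10.9 were used.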

Additional observations from a re-analysis of the deposited data

Results flagged for a closer look

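The dendrite against soma difference of Itpr2 and Slc8a1 went opposite ways in mouse and rat. For Itpr2 the log2 fold of dendrites over somas was 7.39 in mouse (1669 reads against 6) and -4.19 in rat (0 against 114, with 0 set to the floor of 3 reads), a difference of -11.58. For Slc8a1 it was -6.17 in mouse (0 against 130) and 7.74 in rat (205 against 2), a difference of 13.91. These differences between the species were not tested, because each list is 1 pooled value and no list has an error between libraries. In rat the Itpr2 reads of somas lie in 1 contig of 504 nt, and without intron 7 the Slc8a1 reads of mouse somas were 2, so that neither reached 32 reads without its leading intron.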

How the results depend on the processing

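No paired analysis was possible because each list pools its libraries and carries no replicate numbers, and for the same reason leaving out single libraries was not possible. Requiring at least 32 reads in an intron lowered the listed introns of the 8 genes to 16 in mouse dendrites, 6 in mouse somas, 38 in BAT cells, 3 in rat dendrites and 4 in rat somas, while cardiomyocytes kept 58 of 65. Under the limit of 400 nt, 31 introns remained in cardiomyocytes and 1 gene instead of 2 was called between rat dendrites and somas. This limit also removed Slc8a1 from cardiomyocytes, so that its log2 fold became -7.83 against mouse somas and -7.54 against BAT cells. Without the leading intron of each gene, 3 genes instead of 5 were called between mouse dendrites and somas, and 1 instead of 2 in rat. The same change took Itpr1 (0.70) out of the calls between cardiomyocytes and BAT cells and Ryr3 (1.15) out of those between BAT cells and mouse somas, and brought in Itpr1 (-2.99) between cardiomyocytes and mouse somas and Slc8a1 (2.69) between BAT cells and mouse somas, on the log2 scale. The limit of 400 nt took Ryr3 (1.72) out of the calls between cardiomyocytes and BAT cells. Totals without the top 100 introns and a floor of 1 read changed no call among 27 gene folds each, and contigs at the same position counted once moved none of the 30 levels in RPM beyond their counting intervals. Beyond these intervals, the limit of 400 nt moved 23 of 28 levels, totals without the top 100 introns 24 of 30, and leaving out the leading intron 24 of 26. Low counts limit the folds against mouse somas, where Ryr2 and Itpr2 rest on 8 and 6 reads, and that of Slc8a1 against rat somas, which rests on 2.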

Other observations

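Even read counts were frequent in the introns of the 8 genes. In mouse dendrites 38 of 45 introns (84.4%) and in mouse somas 16 of 17 (94.1%) carried an even number of reads, against 39 of 60 (65%) in BAT cells and 34 of 65 (52.3%) in cardiomyocytes. Over all genes the shares were 76.6%, 74.7%, 62.4% and 57.3%.

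Cardiomyocyte markers with intronic reads in BAT cells included Nkx2-5 with 26804 reads and Nebl with 13572, and Nkx2-5 was not listed in cardiomyocytes, where Nebl had 100235 reads. Ucp1, the uncoupling protein of brown fat, had 6596 reads in BAT cells and 899 in cardiomyocytes.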
